A study of Rattus norvegicus with 18 samples.

Results

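Podocytes are the epithelial cells that wrap the capillaries of the glomerulus, and 7 genes of their slit diaphragm and identity are described here: Nphs1, Kirrel, Ptpro, Podxl, Synpo, Plce1 and Wt1. They were chosen by name, each as the row of the deposited gene table that carries the symbol. Each symbol matched 1 row, so the 7 genes are 7 of the 30957 in the table, and all 7 passed the filter on low counts that left 14511 genes for testing. Renal parenchyma of rats was sequenced as poly(A) RNA after the left ureter had been exposed by laparotomy under ketamine and tied with silk, a model of obstructive nephropathy called unilateral ureteral obstruction (UUO). The kidney was taken after 1 day (5 libraries), 3 days (5 libraries), 7 days (5 libraries) or, as labelled, 14 days (3 libraries), so every library described here came from an animal with a ligated ureter. The design also names a sham group whose left ureter was dissected but left untied, which was not analysed here. The labels used here give no strain, sex or age. They also do not say that the libraries of a group are from different animals, and p-values then reflect only how far these libraries scatter, which may be technical.

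The foot processes of neighbouring podocytes are bridged by the slit diaphragm, a cell junction that forms part of the barrier between blood and urine. Nephrin, the product of Nphs1, and the nephrin-like protein encoded by Kirrel span the slit and bind each other, while adaptor and signalling proteins under the membrane link them to the actin of the foot process. Ureteral obstruction is known mainly as an injury of tubules and interstitium, with glomeruli affected less and later.

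Library totals ran from 5488540 to 12049915 counts, and a single gene of the 7 had between 5 and 5157 counts in a library. Levels are given as FPKM, the deposited fragment counts scaled by gene length and library total. Some libraries stood apart before any comparison was made. Transcripts of the mitochondrial genome took 24.03%, 27.4% and 14.4% of counts in replicates 1, 2 and 3 labelled 14 days, against 7.11% to 13.6% in the other 15 libraries. The summed FPKM of 11 endothelial genes were 629, 133 and 1738 in replicates 1, 2 and 3 labelled 14 days and 463 in replicate 5 of day 1, against 136 to 323 in the other 14 libraries. The summed FPKM of 8 collecting duct genes were 1438, 333 and 1308 in those 3 libraries and 899 in replicate 5 of day 1, against 195 to 408 in the others. The list did not rise as a whole. Most of the sum in replicate 3 labelled 14 days came from Aqp2 (777 FPKM) and Aqp3 (466 FPKM). Slc26a4 and Foxi1 had 1.11 and 0.472 FPKM there, against 55.7 to 113 and 21.2 to 37.7 FPKM at 7 days. In replicate 5 of day 1 Aqp2 and Aqp3 had 371 and 380 FPKM, while Slc26a4 was lowest of its group, at 27.8 FPKM. Replicate 2 labelled 14 days had the highest sum of 9 proximal tubule genes, at 3253 FPKM, whereas replicates 1 and 3 had 274 and 206 FPKM. The other 15 libraries ran from 363 to 3061 FPKM. Not all 9 genes were high in that replicate 2, where Slc5a2 had 6.30 FPKM, against 33.3 to 230 FPKM in those 15. Calls and their counts among the earlier durations are therefore given with all 18 libraries and also without the 3 labelled 14 days. In bulk tissue, fewer podocytes and less RNA per podocyte cannot be told apart.

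The start regions of 4 of the genes are shown because the genes differ in how they moved: Nphs1 and Wt1, which followed each other closely, Kirrel, which was higher at 7 days, and Ptpro, which was lower. Each line holds the 250 bases before the RefSeq transcription start on the GRCr8 build, in the direction of the gene, in lower case. Capitals mark matches, on either strand, to a WT1 motif (GNGNGGGNG) or an E-box (CANNTG), with overlapping matches joined. The Nphs1 window is chr1:94848011-94848260 on the plus strand, the Wt1 window chr3:112021759-112022008 on the plus strand, the Kirrel window (Kirrel1 in RefSeq) chr2:174912961-174913210 on the minus strand, and the Ptpro window chr4:171895261-171895510 on the plus strand.
Nphs1: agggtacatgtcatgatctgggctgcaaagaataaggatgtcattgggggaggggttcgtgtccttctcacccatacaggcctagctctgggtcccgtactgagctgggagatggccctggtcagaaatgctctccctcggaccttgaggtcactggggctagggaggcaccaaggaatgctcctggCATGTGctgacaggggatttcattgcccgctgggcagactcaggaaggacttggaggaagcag
Wt1: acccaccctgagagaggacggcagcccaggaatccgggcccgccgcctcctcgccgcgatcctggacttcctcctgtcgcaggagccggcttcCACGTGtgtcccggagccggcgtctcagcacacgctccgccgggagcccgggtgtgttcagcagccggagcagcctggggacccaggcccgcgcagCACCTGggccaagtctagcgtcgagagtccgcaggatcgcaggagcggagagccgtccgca
Kirrel: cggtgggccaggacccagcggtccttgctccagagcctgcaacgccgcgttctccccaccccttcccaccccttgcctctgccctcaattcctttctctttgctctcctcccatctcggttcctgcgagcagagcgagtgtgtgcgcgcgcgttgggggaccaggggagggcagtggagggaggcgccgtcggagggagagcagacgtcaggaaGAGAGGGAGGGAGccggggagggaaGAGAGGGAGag
Ptpro: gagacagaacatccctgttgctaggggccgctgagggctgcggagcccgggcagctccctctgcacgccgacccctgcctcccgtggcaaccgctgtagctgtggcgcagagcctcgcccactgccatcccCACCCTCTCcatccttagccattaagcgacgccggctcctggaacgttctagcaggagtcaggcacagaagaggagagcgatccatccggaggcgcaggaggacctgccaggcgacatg
The Nphs1 window held 1 E-box and no WT1 match. The Wt1 window held 2 E-boxes, the Kirrel window 3 WT1 matches and the Ptpro window 1 WT1 match. Of 33469 rat promoter windows of the same length, 33.0% held the WT1 motif and 65.5% an E-box. Of the 7 genes 6 had a RefSeq window. The Podxl window held 3 WT1 matches and the Synpo window held neither motif. A match is a stretch of letters and not a bound site, and no binding was measured here.

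Over the first 3 durations the 7 genes did not move as a block. Kirrel was higher at 7 days than at 1 day in every library, Ptpro was lower at 7 days than at 1 day, and Nphs1, Podxl, Synpo, Plce1 and Wt1 passed no test among 1, 3 and 7 days in the fit of all 18 libraries. Between 7 days and 1 day, 2 of the 7 genes passed edgeR's quasi-likelihood test (a call, at a Benjamini-Hochberg adjusted p under 0.05), 1 higher and 1 lower, while 25.6% of all 14511 tested genes were called, 12.3% higher and 13.3% lower. The median log2 fold change of the 7 genes was 0.07, against 0.01 over all tested genes. Between 3 days and 1 day 0 of the 7 were called, against 2.27% of all genes, and between 7 and 3 days 0 of the 7, against 1.05%. Without the libraries labelled 14 days these counts were 2 (38.2% of all genes), 0 (10.5%) and 1 (7.92%). At an unadjusted p under 0.05, Plce1 was the 1 gene of the 7 between 3 days and 1 day, and Kirrel the 1 gene between 7 and 3 days. DESeq2 called 0 of the 7 between 3 days and 1 day and 1, Kirrel, between 7 and 3 days.

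**Figure D1:**
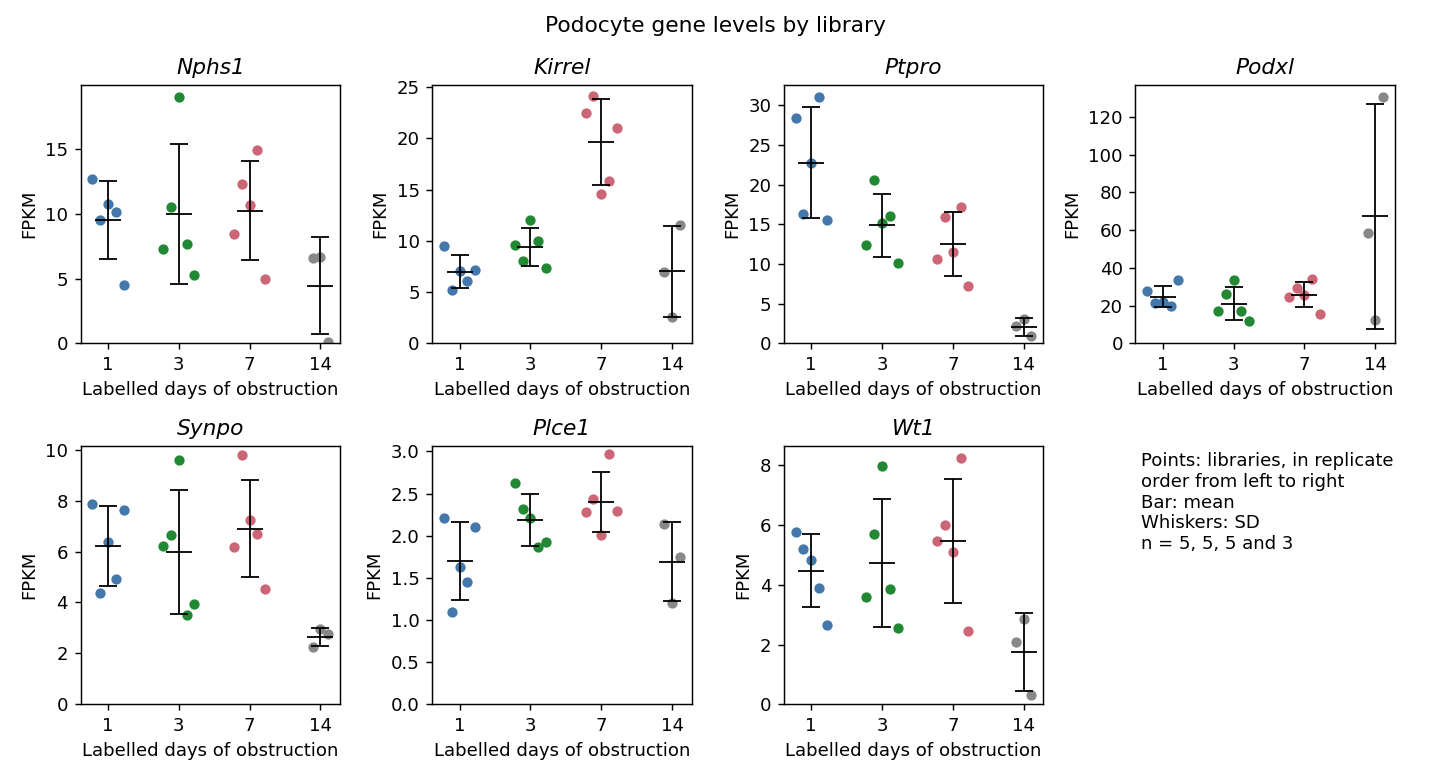
FPKM of the 7 podocyte genes in each of the 18 libraries by labelled days of obstruction, with each gene on its own linear axis from 0; points are libraries, the bar is the mean and the whiskers the SD (n = 5, 5, 5 and 3). The 5 Kirrel values at 7 days lie between 14.6 and 24.1, all above the other durations, and the 3 Ptpro values labelled 14 days lie between 0.917 and 3.09, below all others.

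At 1 day the levels per gene length fell in the order Podxl, Ptpro, Nphs1, Kirrel, Synpo, Wt1 and Plce1, with means of 24.9, 22.8, 9.56, 7.00, 6.23, 4.47 and 1.70 FPKM. The ranges of Podxl (19.6 to 33.6 FPKM) and Ptpro (15.6 to 31.1 FPKM) overlapped at 1 day, as did those of Nphs1 and Kirrel, of Kirrel and Synpo, and of Synpo and Wt1. Ptpro stood above Nphs1, and Wt1 above Plce1, with no overlap. At 7 days Kirrel, at 19.6 FPKM, was second to Podxl at 25.8 FPKM, followed by Ptpro at 12.5, Nphs1 at 10.3, Synpo at 6.90, Wt1 at 5.46 and Plce1 at 2.40 FPKM, and the ranges of each gene and the next in that order overlapped.

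Nphs1 encodes nephrin, the adhesion protein of the slit diaphragm whose loss causes congenital nephrotic syndrome in humans. It had 12.8, 9.54, 10.8, 10.1 and 4.56 FPKM in replicates 1 to 5 at 1 day. It had 7.34, 10.6, 19.0, 7.70 and 5.30 FPKM at 3 days and 8.46, 12.3, 10.7, 14.9 and 4.97 FPKM at 7 days. The 3 groups overlapped, with the highest value in replicate 3 of day 3 and the lowest in replicate 5 of day 1. The log2 fold change between 7 days and 1 day was 0.02, with a 95% interval of −1.25 to 1.28 (edgeR, adjusted p = 0.989), and without the libraries labelled 14 days it was 0.00 ± 0.37 (SE). In the deposited coordinates, which name no build, Nphs1 (ENSRNOG00000020873) lies on chromosome 1 from 88922433 to 88950559 on the plus strand.

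Kirrel encodes NEPH1, the partner of nephrin in the slit, and is also made outside the glomerulus. It had 9.49, 5.22, 7.02, 6.08 and 7.21 FPKM in the 5 libraries at 1 day and 9.62, 8.05, 12.0, 9.97 and 7.35 FPKM at 3 days. At 7 days it had 22.5, 24.1, 14.6, 15.8 and 21.0 FPKM. The 7-day libraries were all above those of 1 and 3 days, which overlapped each other. Such separation between 7 days and 1 day was found for 21.2% of all tested genes, and between 7 and 3 days for 8.3%. Kirrel averaged 19.6 ± 4.19 FPKM at 7 days, against 7.00 ± 1.60 FPKM at 1 day (SD, n = 5 each). The log2 fold change was 1.40 ± 0.25 (SE; edgeR, adjusted p = 0.00105) and 1.39 ± 0.18 without the libraries labelled 14 days (adjusted p = 9.84e-05). The call was kept in all 30 other settings tried, with log2 fold changes of 1.32 to 1.54. Between 7 and 3 days the log2 fold change of Kirrel was 0.98 ± 0.25 with all libraries (adjusted p = 0.0620, not called) and 0.98 ± 0.18 without those labelled 14 days (adjusted p = 0.00852, called). A single test among 1, 3 and 7 days called Kirrel (adjusted p = 0.00254; 0.000229 without the libraries labelled 14 days), as it did 19.7% of all genes (34.4%). The same test did not call Ptpro with all libraries (adjusted p = 0.103) and called it without those labelled 14 days (adjusted p = 0.0199). Kirrel (ENSRNOG00000016408) lies on chromosome 2 from 186420795 to 186515135 on the minus strand.

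Cells other than podocytes changed over the same days. Pdgfrb, a receptor of mesangial cells, pericytes and fibroblasts, had 7.75 to 13.0 FPKM at 1 day, 12.3 to 15.9 FPKM at 3 days and 21.3 to 34.5 FPKM at 7 days, so its groups separated as those of Kirrel did. Over the mesangial list, 6 of 6 genes, summed FPKM ran from 56.4 to 104 at 1 day, 57.3 to 73.6 at 3 days and 86.3 to 129 at 7 days, with none of its genes at 0. Over the smooth muscle list, 6 of 6 genes, it ran from 81.3 to 142 at 1 day, 92.2 to 251 at 3 days and 230 to 436 at 7 days. That list did not rise as a whole. Between 7 days and 1 day 3 of the 6 were called higher and 0 lower, beside 12.3% and 13.3% of all genes. Acta2 had 26.3 to 52.0 FPKM at 1 day and 83.4 to 143 FPKM at 7 days. Myh11 had 5.81 to 13.7 FPKM at 1 day and 5.43 to 9.57 FPKM at 7 days, and Lmod1 0.385 to 1.72 and 0.753 to 1.19 FPKM. The part of these cells in the Kirrel level was not tested.

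Ptpro encodes GLEPP1, a receptor tyrosine phosphatase of the apical surface of foot processes. It had 28.4, 16.3, 22.7, 31.1 and 15.6 FPKM at 1 day, 12.4, 20.6, 15.1, 16.1 and 10.2 FPKM at 3 days, and 10.6, 15.9, 11.5, 17.2 and 7.29 FPKM at 7 days. The 1-day and 7-day groups overlapped, with replicates 2 and 5 of day 1 within the 7-day range. Ptpro averaged 12.5 ± 4.05 FPKM at 7 days, against 22.8 ± 6.96 FPKM at 1 day (SD, n = 5 each). Its log2 fold change was −0.95 ± 0.33 (SE; edgeR, adjusted p = 0.0438), and −0.96 ± 0.25 without the libraries labelled 14 days (adjusted p = 0.00808). With all 18 libraries this call was narrow. It was lost in 10 of these 30 settings, among them leaving out replicate 1, 3 or 4 of day 1, 1 or 4 of day 3, or 1, 3 or 5 of day 7, with adjusted p up to 0.112. Without the libraries labelled 14 days it was kept in all 15 fits that left out 1 further library, with adjusted p up to 0.0241. Ptpro (ENSRNOG00000006231) lies on chromosome 4 from 171250818 to 171461677 on the plus strand.

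Ptpro is also made by neurons and some leukocytes. The summed FPKM of 8 neuronal genes ran from 8.90 to 14.7 at 7 days and from 9.28 to 15.3 at 1 day, with up to 3 of the 8 at 0 in a library. Tubb3 was the largest part of that sum, at 5.10 to 10.5 FPKM at 7 days and 5.46 to 11.4 FPKM at 1 day. Snap25 and Syt1 had at most 0.065 and 0.173 FPKM at these durations, and 3 of the 8 passed the filter. The sum therefore says little about neurons. Of 9 macrophage genes the sum ran from 829 to 3882 at 7 days and from 304 to 675 at 1 day. The part of these cells in the Ptpro level was not tested.

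**Figure D2:**
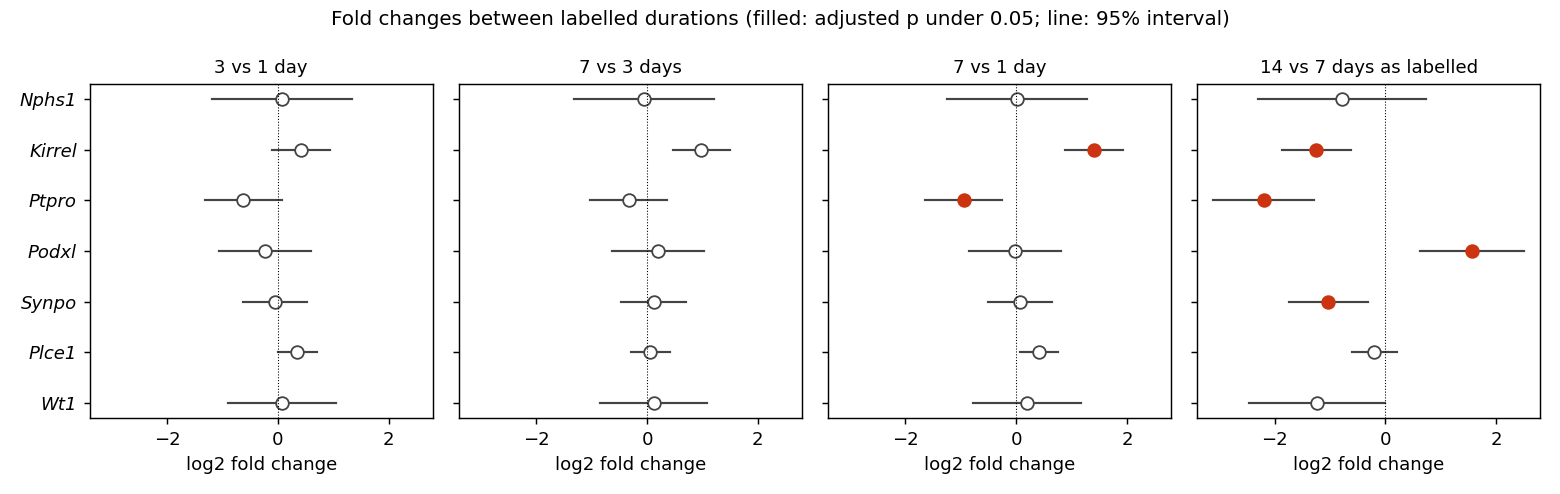
Log2 fold changes of the 7 podocyte genes between labelled durations in the edgeR fit of 18 libraries, later over earlier; points are estimates, filled where the adjusted p was under 0.05, and lines are 95% intervals. Between 7 days and 1 day Kirrel is filled at 1.40 and Ptpro at −0.95, and between the libraries labelled 14 days and 7 days Kirrel, Ptpro, Podxl and Synpo are filled.

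Podxl encodes podocalyxin, a sialomucin whose negative charge keeps foot processes apart, and is also made by endothelium. It had 27.8, 21.4, 21.9, 19.6 and 33.6 FPKM at 1 day, 16.9, 26.2, 33.4, 17.1 and 11.9 FPKM at 3 days, and 24.4, 29.5, 25.6, 33.9 and 15.7 FPKM at 7 days. These groups overlapped, and the log2 fold change between 7 days and 1 day was −0.02 (95% interval −0.85 to 0.81; edgeR, adjusted p = 0.972). The highest 1-day value was in replicate 5, the library with the raised endothelial sum, in which Nphs1 was lowest of its group. Plvap, an endothelial gene of fenestrated and injured capillaries, had 124 FPKM in that library and 16.7 to 36.1 FPKM in the other 4 of day 1.

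Synpo encodes synaptopodin, which binds the actin bundles of foot processes, and Plce1 a phospholipase C whose loss causes nephrotic syndrome in humans. Synpo ran from 4.38 to 7.87 FPKM at 1 day, 3.52 to 9.60 FPKM at 3 days and 4.55 to 9.79 FPKM at 7 days, with full overlap. Its log2 fold change between 7 days and 1 day was 0.07 ± 0.28 (SE; edgeR, adjusted p = 0.881). Plce1 was the lowest of the 7, at 1.09 to 2.21 FPKM at 1 day, 1.87 to 2.63 FPKM at 3 days and 2.01 to 2.97 FPKM at 7 days. Its log2 fold change between 7 days and 1 day was 0.41 ± 0.16 and did not pass (edgeR, adjusted p = 0.0756). It passed without replicate 1 of day 1 (0.53, adjusted p = 0.0341), and without the libraries labelled 14 days by DESeq2 (0.39, adjusted p = 0.0487) but not by edgeR (0.40, adjusted p = 0.0700). In that edgeR fit Podxl, Synpo and Wt1 had log2 fold changes of −0.04, 0.05 and 0.19 between 7 days and 1 day and were not called. Synpo (ENSRNOG00000019181) lies on chromosome 18 from 55865467 to 55916220 on the minus strand, Plce1 (ENSRNOG00000014276) on chromosome 1 from 257157264 to 257466064 on the plus strand and Podxl (ENSRNOG00000012495) on chromosome 4 from 58829060 to 58893170 on the minus strand.

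Wt1 encodes the zinc finger transcription factor that sets podocyte identity. It had 5.77, 5.21, 4.84, 3.89 and 2.64 FPKM at 1 day, 3.58, 5.70, 7.99, 3.87 and 2.55 FPKM at 3 days, and 5.46, 6.00, 5.11, 8.26 and 2.46 FPKM at 7 days. All 3 groups overlapped, with a log2 fold change between 7 days and 1 day of 0.20 (95% interval −0.78 to 1.17; edgeR, adjusted p = 0.788). Wt1 is also made by the mesothelium of the kidney surface. The summed FPKM of 6 mesothelial genes was 22.7 in replicate 5 of day 1, 14.9 in replicate 1 of day 3 and at most 3.39 in the other 13 libraries of 1 to 7 days, with up to 4 of the 6 at 0. The 6 genes were not high together in replicate 5 of day 1 and replicate 1 of day 3. Msln had 9.66 and 5.32 FPKM there, Upk1b 8.96 and 8.56 FPKM, and Upk3b 3.94 and 0.838 FPKM. Lrrn4 had 0.152 and 0.129 FPKM, Bnc1 0.021 and 0.088 FPKM, and Muc16 was at 0. Wt1 was not high in either of those libraries, at 2.64 and 3.58 FPKM, and the part of mesothelium in its level was not tested. Wt1 (ENSRNOG00000013074) lies on chromosome 3 from 95133713 to 95180564 on the plus strand.

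Across the 15 libraries of 1, 3 and 7 days, Nphs1 and Wt1 had nearly the same profile. Their log2(CPM + 1), CPM being counts scaled to a common library total, had a Pearson r of 0.95, and 0.96 after the mean of each duration was removed. Podxl and Synpo had r = 0.82 with each other, while Nphs1 had r = 0.63 with Podxl and 0.59 with Synpo. Kirrel had r = 0.11 with Nphs1, and −0.56 with Ptpro, which was 0.11 within durations. These values describe libraries that share their depth and tissue sampling with every other gene.

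**Figure D3:**
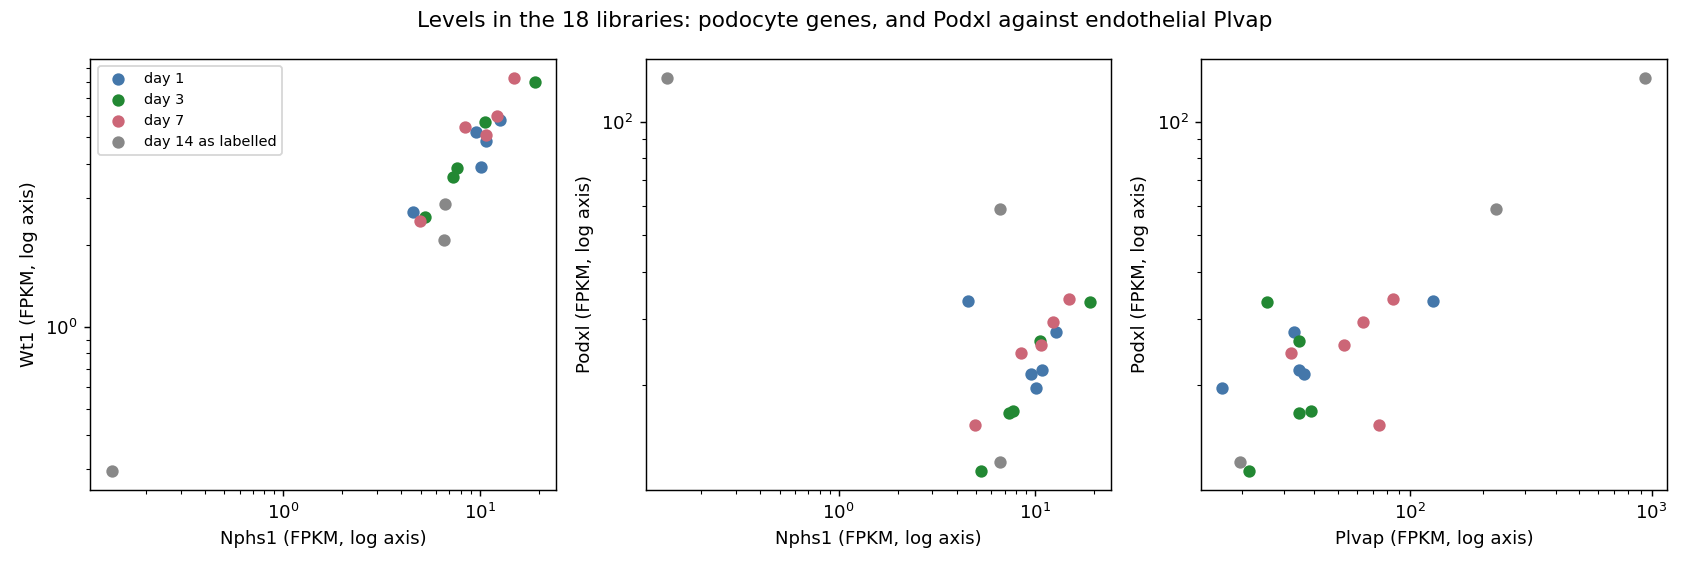
FPKM on log axes in the 18 libraries, with points coloured by labelled duration: Wt1 and Podxl against Nphs1, and Podxl against the endothelial gene Plvap. Wt1 rises with Nphs1 in 17 libraries, at ratios of 0.318 to 0.646, while replicate 3 labelled 14 days, at 0.134 FPKM of Nphs1, has a ratio of 2.21; the highest Podxl values, 131 and 58.7 FPKM, are those with the highest Plvap, 943 and 227 FPKM.

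The ratio of a gene to Nphs1 within a library sets aside how much podocyte RNA a library holds, as far as Nphs1 tracks it. The ratio of Wt1 to Nphs1 was 0.482 ± 0.080 at 1 day, 0.486 ± 0.043 at 3 days and 0.531 ± 0.071 at 7 days (SD, n = 5 each). The ratio of Ptpro to Nphs1 was 1.07 to 1.47 in the 5 libraries of 7 days and 1.71 to 3.42 in those of 1 day, with no overlap. The difference of the mean log2 ratios was −0.97 (exact two-sided permutation test, p = 0.00794, the smallest that 5 against 5 libraries can give), which did not pass adjustment over the 18 ratio tests (adjusted p = 0.143). The ratio of Kirrel to Nphs1 was 1.06 to 4.23 at 7 days and 0.547 to 1.58 at 1 day, which overlapped, with a difference of 1.40 on the log2 scale (exact permutation p = 0.0238, adjusted p = 0.214). None of the 18 ratio tests passed adjustment. Even at the smallest p, 1 test alone could not pass over 18 tests, so this outcome does not show that the ratios were unchanged.

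**Figure D4:**
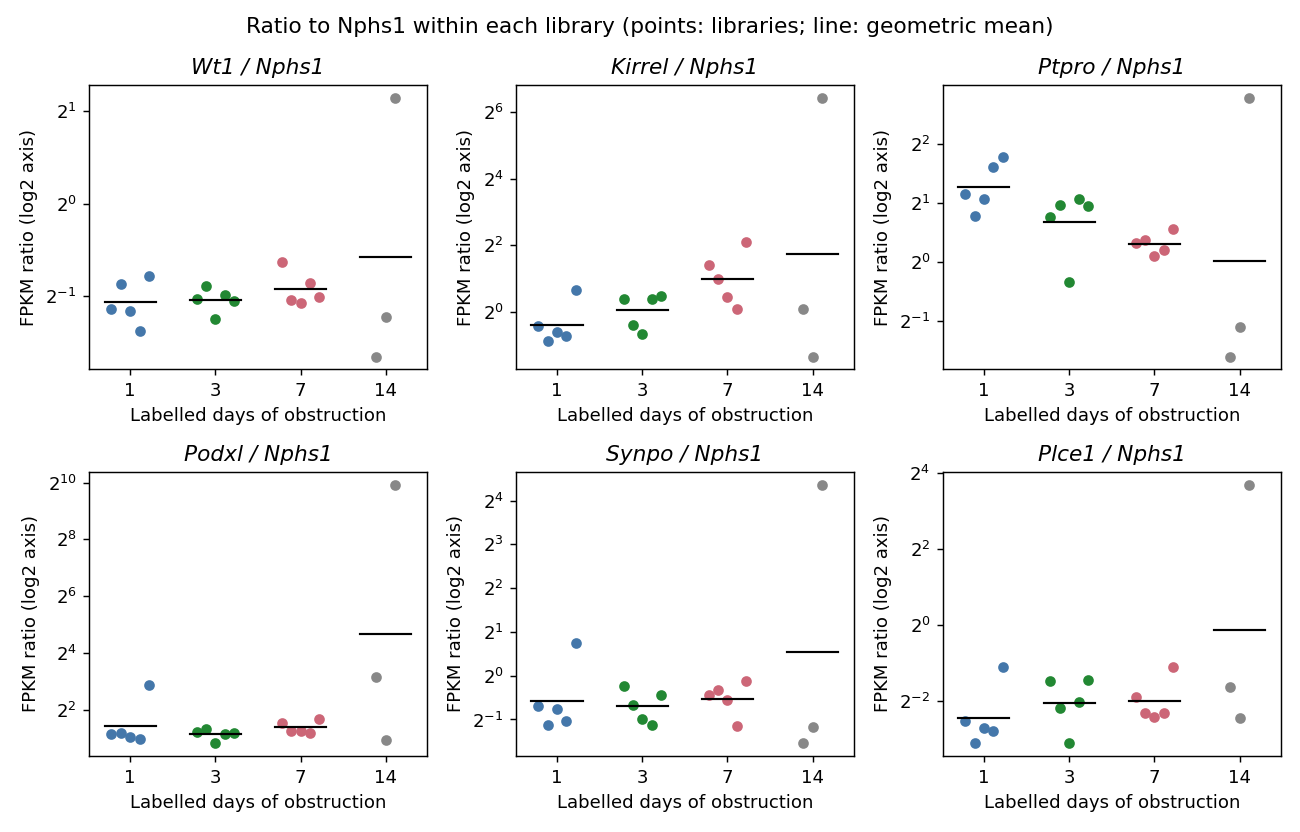
Ratio of FPKM to that of Nphs1 within each library by labelled days of obstruction, on log2 axes; points are libraries and lines geometric means (n = 5, 5, 5 and 3). The Ptpro ratio at 7 days, 1.07 to 1.47, lies wholly below that at 1 day, 1.71 to 3.42, while the Wt1 ratio keeps to 0.384 to 0.646 over the first 3 durations.

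The libraries labelled 14 days differed from those of 7 days in 4 of the 7 genes, 3 lower and 1 higher, while 38.3% of all tested genes were called, 16.9% lower and 21.4% higher. Ptpro had 2.17, 3.09 and 0.917 FPKM in replicates 1, 2 and 3 labelled 14 days, all below the 7.29 to 17.2 FPKM of 7 days. Its log2 fold change was −2.20 ± 0.43 (SE; edgeR, adjusted p = 0.00107), and it was called in all 28 other settings tried. Kirrel had 7.00, 2.61 and 11.5 FPKM, against 14.6 to 24.1 FPKM at 7 days, a log2 fold change of −1.25 ± 0.30 (adjusted p = 0.00394) that was also called in all 28. Synpo had 2.26, 2.95 and 2.76 FPKM, against 4.55 to 9.79 FPKM at 7 days. Its log2 fold change of −1.03 ± 0.34 (adjusted p = 0.0234) lost its call without replicate 2 of day 7 (adjusted p = 0.0524), without replicate 1 (0.0936) or 3 (0.0744) labelled 14 days, and by limma's voom with quality weights (0.108). Separation with no overlap, as in these 3 genes, was found for 29.5% of all tested genes.

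Podxl was the gene that was higher, and its call was lost without 1 library and in other settings. It had 58.7, 12.5 and 131 FPKM in replicates 1, 2 and 3 labelled 14 days, against 15.7 to 33.9 FPKM at 7 days, so the groups overlapped and replicate 2 lay below all 7-day libraries. The log2 fold change was 1.57 ± 0.44 (edgeR, adjusted p = 0.0111), and without replicate 3 it was 0.78 (adjusted p = 0.168). The call was also lost with all libraries on log2(FPKM + 1) (0.86, adjusted p = 0.186), on log2(FPKM + 0.1) (0.87, adjusted p = 0.196) and in a fit of these 2 groups alone (1.58, adjusted p = 0.0608). Plvap had 227, 19.6 and 943 FPKM in the same 3 libraries, against 32.0 to 85.2 FPKM at 7 days, and Emcn, the endothelial sialomucin endomucin, had 125, 23.3 and 288 FPKM, against 26.7 to 47.9 FPKM. Of 11 endothelial genes 6 were called higher and 0 lower in the libraries labelled 14 days, beside 21.4% and 16.9% of all genes. Not all of them rose as Plvap and Emcn did. Kdr had 6.80, 4.58 and 7.32 FPKM in these libraries, against 7.39 to 11.9 FPKM at 7 days. Ehd3 had 10.7, 8.17 and 10.2 FPKM, against 8.2 to 13.1 FPKM. The part of endothelium in the Podxl level was not tested.

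Nphs1 had 6.60, 6.65 and 0.134 FPKM in replicates 1, 2 and 3 labelled 14 days, the last from 5 counts. Wt1 had 2.10, 2.85 and 0.296 FPKM, also from 5 counts in replicate 3. Replicate 3 was thus nearly without transcripts of these 2 podocyte genes while it held the highest Podxl level of all 18 libraries and 1.74 FPKM of Plce1. Neither Nphs1 (log2 fold change −0.78 ± 0.72; edgeR, adjusted p = 0.417), Wt1 (−1.23 ± 0.58; adjusted p = 0.104) nor Plce1 (−0.20 ± 0.19; adjusted p = 0.432) was called. Wt1 was called without replicate 2 (−1.96, adjusted p = 0.0192). On log2(FPKM + 1), limma called both Nphs1 (−1.41, adjusted p = 0.0465) and Wt1 (−1.31, adjusted p = 0.0102). The summed FPKM of 9 macrophage genes were 83.9, 128 and 322 in replicates 1, 2 and 3 labelled 14 days. That sum was 829 to 3882 at 7 days and 304 to 675 at 1 day. Between the libraries labelled 14 days and 7 days 7 of the 9 were called lower and 0 higher, beside 16.9% and 21.4% of all genes. The libraries labelled 14 days also had the 3 highest mitochondrial shares, and differed among themselves in the tubular lists given above. Duration and the makeup of these libraries therefore cannot be told apart.

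The other genes known from podocytes were taken from 4 lists of 47 genes, of which 44 were found and 42 tested. Between 7 days and 1 day 5 were called higher and 4 lower, with a median log2 fold change of 0.04, against 0.01 over all tested genes and the 25.6% of all genes called. Without the libraries labelled 14 days 10 of 41 were called higher and 5 lower, beside 38.2% of all genes. Between 3 days and 1 day 0 of 42 were called, beside 2.27% of all genes, and between 7 and 3 days 0 of 42, beside 1.05%. Without the libraries labelled 14 days 4 of 41 were higher and 2 lower at 3 days relative to 1 day, beside 10.5% of all genes called. At 7 days relative to 3 days 4 of 41 were higher and 0 lower in that fit, beside 7.92%.

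Of 13 tested slit diaphragm partners 1 was higher and 3 were lower at 7 days than at 1 day. Among all tested genes 12.3% were called higher and 13.3% lower. Cd2ap, an adaptor between nephrin and actin that tubular cells also make, was at 48.1 ± 16.2 FPKM at 7 days and 120 ± 22.4 FPKM at 1 day (SD, n = 5 each), with a log2 difference of −1.40 ± 0.26 (SE; edgeR, adjusted p = 0.00131). The junction scaffold Tjp1 fell by 0.57 on the log2 scale (adjusted p = 0.0210; lost without replicate 4 or 5 of day 7, and on log2(FPKM + 1) and log2(FPKM + 0.1), with adjusted p of 0.147 and 0.153) and the polarity protein gene Pard3 by 0.70 (adjusted p = 0.000724). Fyn, the kinase that phosphorylates nephrin and is abundant in lymphocytes, rose by 0.84 ± 0.24 (adjusted p = 0.0176; lost without replicate 4 of day 7). The slit diaphragm scaffold Magi2 had a log2 fold change of −0.14 ± 0.40 (adjusted p = 0.83).

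Of 5 tested podocyte transcription factors 1 was higher at 7 days than at 1 day and 0 lower, beside 25.6% of all genes called. Tcf21, a factor of podocytes and of interstitial stroma, was at 60.7 ± 13.8 FPKM at 7 days and 20.2 ± 5.21 FPKM at 1 day (SD, n = 5 each), and it rose by 1.51 ± 0.24 on the log2 scale (SE; edgeR, adjusted p = 0.000607). Its groups did not overlap, and the part of stroma in its level was not tested. The podocyte factor Lmx1b was among the 4 that were not called.

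Among the 9 tested genes of the podocyte cytoskeleton and cell body, Anln, an actin-binding protein of the dividing cell that is mutated in human glomerulosclerosis, rose by 1.60 ± 0.40 (SE; edgeR, adjusted p = 0.00833) to 1.11 FPKM at 7 days, against 0.347 FPKM at 1 day. Anln was low in both groups, which overlapped, at 0.441 to 1.77 FPKM at 7 days and 0.106 to 0.564 FPKM at 1 day. Arhgap24, which encodes a Rac-inactivating protein, rose by 0.94 ± 0.27 (adjusted p = 0.0161), to 60.5 to 90.7 FPKM at 7 days, and 0 of the 9 fell. Arhgap24 still had 36.7 FPKM in replicate 3 labelled 14 days, where Nphs1 had 0.134 FPKM, and the part of other cells in its level was not tested. Of 15 tested surface, secreted and basement membrane genes 1 rose and 1 fell. The share of all genes called was 12.3% higher and 13.3% lower. Pla2r1, the phospholipase A2 receptor that is the main autoantigen of human membranous nephropathy, rose by 1.53 ± 0.36 (adjusted p = 0.00561) but stayed low, at 0.779 FPKM at 7 days and 0.254 FPKM at 1 day. Htra1, a secreted serine protease, was at 64.6 ± 20.04 FPKM at 7 days and 204 ± 71.0 FPKM at 1 day, a log2 fold change of −1.75 ± 0.53 (adjusted p = 0.0221). The Htra1 call was lost in 5 other settings, among them without replicate 4 of day 1 or replicate 3 or 5 of day 7. Without the libraries labelled 14 days, 1 of 12 slit diaphragm partners was called higher and 3 lower, and 2 of 5 transcription factors higher and 0 lower. There 4 of 9 cytoskeleton genes were called higher and 1 lower, and 3 of 15 surface, secreted and basement membrane genes higher and 1 lower. These counts stand beside 38.2% of all genes called. The 9 list genes called between 7 days and 1 day with all libraries were all called in that fit too, in the same direction, with adjusted p from 7.83e-05 (Pla2r1) to 0.00758 (Anln).

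Between the libraries labelled 14 days and 7 days 8 of the 42 podocyte list genes were called higher and 7 lower, beside 38.3% of all genes, 21.4% higher and 16.9% lower, with a median log2 fold change of 0.27, against 0.07 over all tested genes. Tcf21 had 18.8, 5.09 and 12.8 FPKM in replicates 1, 2 and 3 labelled 14 days, against 44.1 to 79.5 FPKM at 7 days, and its log2 fold change was −2.05 ± 0.31 (SE; edgeR, adjusted p = 0.000156). Anln fell by 2.39 ± 0.55 (adjusted p = 0.00305; 0.126 by voom). Col4a4, a chain of the mature glomerular and of the collecting duct basement membrane, was at 16.9 to 120 FPKM in the libraries labelled 14 days and 5.46 to 10.9 FPKM at 7 days, a log2 fold change of 3.07 ± 0.48 (adjusted p = 0.000222). Kirrel3, a relative of Kirrel, was called higher (log2 fold change 5.31 ± 1.25, edgeR adjusted p = 0.00370) at 0.0887 to 1.28 FPKM. It had at most 0.0846 FPKM at 7 days, where some libraries had no count, so that its fold change depends on the fit. Kirrel3 passed the filter on low counts only when the libraries labelled 14 days were included, so its call rests on the libraries that let it in. It is among the 8 list genes counted as higher. Magi2 (−0.49 ± 0.51; adjusted p = 0.481) was not called.

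The genes most like the mean profile of the 7 over the 15 libraries of 1, 3 and 7 days, out of 11407 ranked, were Sema3g (Pearson r = 0.93), Clic5 (0.86), Mertk (0.82), Prkag2 (0.80) and Tspan2 (0.76). Sema3g, a secreted semaphorin of podocytes and endothelium, and Clic5, a chloride channel family protein of the foot process, were on the podocyte lists. Robo2, also on these lists, had rank 9. Sema3g averaged 43.9 FPKM at 1 day, 46.2 FPKM at 3 days and 50.5 FPKM at 7 days, and was not called between any of these durations. Over all 18 libraries Sema3g had rank 2 (r = 0.88), Clic5 rank 123 (r = 0.65) and Mertk rank 524 (r = 0.54), while Prkag2 had r = 0.05 and Tspan2 r = −0.22.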

How the data were processed

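Counts per gene and library and FPKM per gene and library were deposited by the authors in a single table, per the file headers. Per the submitters' processing notes, fastp 0.19.7 and HISAT2 2.0.4 were used; how genes were counted, whether strand was used, and the annotation and build are not stated in these notes or labels, and reads shared by overlapping genes cannot be separated. Per the labels' protocols, mRNA was captured on oligo(dT) beads. The deposited FPKM equal the count divided by 1 length per gene and by the library total (8250 genes with at least 50 counts in every library, largest ratio of implied lengths 1.00002). No 2 libraries of a group agreed within sampling noise (lowest chi-square per degree of freedom 6.83). Libraries were grouped by their labels, and all carry the same batch label.

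The filter was filterByExpr with a min.count of 10 and a min.total.count of 15. TMM-scaled counts of the 18 libraries entered 1 quasi-likelihood model (edgeR 4.0.16, R 4.3.3), with Benjamini-Hochberg adjustment over 14511 genes per comparison (13991 without the libraries labelled 14 days). Standard errors are the log2 fold change over the square root of F. Ratios to Nphs1 were compared by exact two-sided permutation (SciPy 1.17.1). The 7 genes, the lists, the tests and the alternatives were chosen with earlier results of these data known. Named list genes were Tcf21 and Magi2, and per comparison up to 4 called genes with the largest absolute log2 fold change; Cd2ap, Tjp1, Pard3, Fyn and Arhgap24 were named after their values were seen because few genes were called. Like genes were the 5 with the highest Pearson r to the mean z score of the 7, among genes with a mean of at least 50 counts. Some genes of the lists and of this rule are not reported here and are left out of the list counts. Of the 140 other genes on 17 marker lists 136 were found; Myo1e, Nes, Col4a3 and Pecam1 were not matched. Alternatives were DESeq2 1.42.0, limma 3.58.1 with voom quality weights or on log2(FPKM + 1) and log2(FPKM + 0.1), RLE factors, robust dispersion, other filters (none, or min.count 30), only the groups compared, the replicate number as a block, and libraries left out. Promoter windows are from RefSeq, GRCr8.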

Additional observations from a re-analysis of the deposited data

Results flagged for a closer look

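Within each group of 5 libraries, the FPKM of the 7 genes and their ratios to Nphs1 were searched for a library far from the others, by the gap to its nearest neighbour over the range of the group (39 groups searched, critical value 0.71, which chance passes in about 1 group in 20). All 4 that passed were ratios in replicate 5 of day 1. The ratio of Kirrel to Nphs1 was 1.58 there, against 0.547 to 0.744 in the other 4 libraries of day 1. The ratio of Podxl to Nphs1 was 7.36, against 1.94 to 2.25, that of Synpo 1.67, against 0.459 to 0.617, and that of Plce1 0.460, against 0.115 to 0.174. These 4 ratios share their denominator, and Nphs1 was lowest of day 1 in that library, at 4.56 FPKM, against 9.54 to 12.8 FPKM in the others. The ratio of Wt1 to Nphs1 in replicate 5, 0.580, was not apart from those of the other libraries. The library also held the highest endothelial, collecting duct and mesothelial sums of day 1 (463, 899 and 22.7 FPKM), and their part in the ratios was not tested.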

How the results depend on the processing

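Kirrel between 7 days and 1 day, and Kirrel and Ptpro between the libraries labelled 14 days and 7 days, kept direction and call in every setting tried (30 and 28). Other counts moved with the setting, and the cause was not tested. Between 3 days and 1 day, where 0 of the 7 genes, 0 list genes and 330 of all genes were called, voom with quality weights called 1, 15 and 3179; the list and all-gene counts were 3 and 951 by DESeq2, 6 and 1463 without the libraries labelled 14 days, 5 and 1203 on the groups compared alone, and 9 and 2016 without the libraries labelled 14 days and replicate 5 of day 1. With no filter 171 genes were called. Leaving out 1 of the 18 libraries gave 0 to 4 list genes and 115 to 1159 of all genes. Between 7 and 3 days (0, 0 and 152) the counts for the 7 genes, the lists and all genes were 1, 2 and 909 by DESeq2, 1, 4 and 1108 without the libraries labelled 14 days, 1, 4 and 981 on the groups alone and 1, 7 and 1484 by voom. All genes called were 64 with no filter and 42 on log2(FPKM + 0.1). Leave-one-out gave 0 to 1, 0 to 3 and 14 to 870, and without the libraries labelled 14 days and replicate 5 of day 1 the counts were 1, 7 and 1772. Between 7 days and 1 day (2, 9 and 3713) the count for the 7 was 1 with no filter and on log2(FPKM + 0.1), 1 to 2 in leave-one-out, and 3 without the libraries labelled 14 days and replicate 5 of day 1. List genes were 15 without the libraries labelled 14 days, 16 on the groups alone, 20 by voom, 7 to 14 in leave-one-out and 17 without those 4 libraries, and all genes 6544 by voom, 2834 to 5146 in leave-one-out and 5841 without those 4. Between the libraries labelled 14 days and 7 days (4, 15 and 5560) the groups alone gave 8 list genes and 3153 genes, and leave-one-out 2 to 5 of the 7 and 10 to 24 list genes.

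Signs turned only in results that were called neither as reported nor in the setting that turned them. On the log2 scale, between 3 days and 1 day Nphs1 was −0.30 by voom, −0.0015 on log2(FPKM + 0.1) and −0.36 to 0.23 with libraries left out, Wt1 −0.18 by voom and −0.24 to 0.24, Synpo −0.34 to 0.095, and Magi2 −0.25 by voom and −0.15 to 0.28. Between 7 and 3 days Nphs1 was 0.0070 by voom, 0.081 on log2(FPKM + 1), 0.090 on log2(FPKM + 0.1) and −0.22 to 0.35, Synpo −0.032 to 0.39, Plce1 −0.028 to 0.11, Wt1 −0.072 to 0.42 and Magi2 −0.42 to 0.00054. Between 7 days and 1 day Nphs1 was −0.00053 on the groups alone, −0.29 by voom and −0.18 to 0.19, Podxl 0.039 on both FPKM scales and −0.15 to 0.11, Wt1 −0.031 by voom and −0.00069 to 0.38, Synpo −0.099 to 0.18 and Magi2 −0.30 to 0.026. With libraries left out, the ratios to Nphs1 between 3 days and 1 day were −0.057 to 0.092 for Wt1, −0.42 to 0.060 for Podxl and −0.25 to 0.21 for Synpo, that of Plce1 between 7 and 3 days −0.22 to 0.19, and those between 7 days and 1 day −0.085 to 0.38 for Synpo and −0.17 to 0.31 for Podxl.

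No pairing of the libraries by replicate number was seen, which does not show that there is none. Deviations from the group means of same-numbered libraries had a mean r of 0.0092 (−0.45 to 0.43 over 24 pairs), and 2 of 18 libraries correlated best with their own number. With the replicate block 139 genes were called between 3 days and 1 day and 39 between 7 and 3 days, with 0 of the 7 in either, 2 of the 7 between 7 days and 1 day, and 3 between the libraries labelled 14 days and 7 days, where Podxl was at 1.28 (adjusted p = 0.0657). With the block and without the libraries labelled 14 days, Nphs1 was at −0.00096 between 3 days and 1 day and −0.0047 between 7 days and 1 day. That fit, DESeq2 without the libraries labelled 14 days, the fits that left out a further library and the ratios with libraries left out were added after the data were seen. Counts were lowest for Wt1, at 5 to 151 a library, and for Nphs1 in 1 library, at 5. Both counts of 5 were in replicate 3 labelled 14 days, whose total of 6445118 counts was above the lowest total, 5488540.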
